A study of Mus musculus with 2 samples.

Results

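The genes of oxidative phosphorylation were followed in the epithelial cells of mouse lungs, with the subunits encoded in the nucleus and those encoded in mitochondrial DNA kept apart. Members were chosen by symbol alone, as the nuclear Nduf, Sdh, Uqcr, Cox and Atp5 subunit genes and the protein-coding mt- genes, and the rule uses no measured value. This gave 97 of the 31053 gene rows of the count tables, 84 nuclear rows (83 symbols, since Atp5o has 2 gene IDs) and 13 mitochondrial ones. By complex there were 35 nuclear and 7 mitochondrial members in complex I, 4 nuclear members in complex II, 8 nuclear and 1 mitochondrial in complex III, 19 nuclear and 3 mitochondrial in complex IV, and 18 nuclear and 2 mitochondrial in complex V. Ndufa4, once assigned to complex I, was counted with complex IV. Cyc1 and Ndufab1 do not match the symbol rule, so they are not among the members and were read with the electron carriers instead.

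The libraries came from C57BL/6JRj mice of 18 months (old) and 3 months (young). Mice of each age had received lipopolysaccharide (LPS, a component of the outer membrane of bacteria, at 2.5 mg/kg) and were examined 24 h later, or had received saline as the control. Lungs were lavaged and digested after removal of the airways, and living cells positive for EpCAM, a surface protein of epithelia, were sorted. The 4 groups (old LPS, old control, young LPS and young control) were marked with hashtag antibodies and pooled in equal numbers on each of 2 lanes of a droplet instrument, which gave 8 libraries, 2 per group. Neither the number of mice behind a library nor whether both lanes drew on the same mice is given, and the tests therefore weigh differences against the scatter of these libraries alone.

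Oxidative phosphorylation takes electrons from NADH at complex I and from succinate at complex II, passes them through complex III and cytochrome c to oxygen at complex IV, and uses the proton gradient so built to make ATP at complex V. Mitochondrial DNA encodes the membrane core of complexes I, III, IV and V, while complex II is wholly nuclear. Alveolar epithelial type II cells (AE2), which make and secrete surfactant, and ciliated cells, which drive mucus with beating cilia, are both rich in mitochondria.

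Unique molecular identifiers (UMIs) were summed per library over 8724 AE2-like cells (720 to 1413 per library) and 902 ciliated-like cells (52 to 266 per library) of 11229 cells kept, so that libraries and not cells were the replicates. The sums held 4084492 to 12757146 UMIs per library in AE2-like cells and 269818 to 1681218 in ciliated-like cells. Marker genes were high where both names put them. The 10 AE2 markers summed to 4494 to 9258 counts per 1e+06 UMIs (CPM) in LPS libraries and 5856 to 19425 CPM in control libraries of ciliated-like cells, against 95518 to 131150 CPM (LPS) and 273490 to 311390 CPM (control) in AE2-like cells. The 10 ciliated markers summed to 12290 to 12560 CPM (LPS) and 12800 to 13768 CPM (control) in ciliated-like cells and stayed under 84 CPM in AE2-like cells. One library stood apart: in old LPS 2, 22.6% of the AE2-like cells (320 of 1413) and 28.7% of the ciliated-like cells fell in clusters made up mainly of control cells, against 2.75% to 9.11% and 5.56% to 13.6% in the other LPS libraries. Club and secretory cell markers (8 genes) summed to 12499 to 16365 CPM in LPS libraries and 3200 to 6175 CPM in control libraries of AE2-like cells. In ciliated-like cells they summed to 23071 and 19124 CPM in old LPS libraries, above the 10 ciliated markers there. They summed to 8546 and 8524 CPM in young LPS libraries and 6909 to 13769 CPM in control libraries of ciliated-like cells. The part of these transcripts in the results below was not tested. Only barcodes with at most 20% mitochondrial UMIs were kept, a limit that bears directly on the mitochondrial members.

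As shares of all UMIs, the 2 genomes moved in opposite directions after LPS in AE2-like cells. Per cell, as given below, neither was lower after LPS within a lane. Nuclear members summed to 22491 and 22223 CPM in old LPS libraries, against 18372 and 18175 CPM in old control libraries. In young mice the nuclear sum was 23504 and 23957 CPM with LPS, against 17498 and 18337 CPM in control. As a share of all UMIs, the nuclear sum was thus higher in every LPS library, 1.22 times the control mean in old and 1.32 times in young mice. The 13 mitochondrial members summed to 62547 and 66019 CPM in old LPS libraries against 83208 and 79642 CPM in old control libraries, and to 60411 and 65159 CPM in young LPS libraries against 72689 and 75150 CPM in young control libraries. These sums were lower in every LPS library, 0.789 times the control mean in old and 0.849 times in young mice.

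The ratio of mitochondrial to nuclear UMIs, which does not depend on the other genes of a library, was 2.78 and 2.97 in old LPS libraries against 4.53 and 4.38 in old control libraries. It was 2.57 and 2.72 in young LPS libraries against 4.15 and 4.10 in young control libraries. Per AE2-like cell, the nuclear members gave 198 and 201 UMIs (old LPS), 107 and 130 (old control), 179 and 197 (young LPS) and 99.3 and 120 (young control). Mitochondrial UMIs per cell were 552 and 596 (old LPS), 487 and 569 (old control), 460 and 535 (young LPS) and 412 and 491 (young control), so that per cell they were not lower after LPS within either lane. Total UMIs per AE2-like cell were also higher after LPS, at 7619 to 9028 against 5673 to 7144 in control libraries. The surfactant gene Sftpc alone took 38627 to 67798 CPM of AE2-like UMIs in LPS libraries and 222110 to 255270 CPM in control libraries. Such a change in composition moves the CPM of all other genes. Lcn2 went the other way, with 61731 to 88147 CPM in LPS libraries and 2233 to 2472 CPM in control libraries. What part these changes have in the ratios of the sums was not tested. The tests below used scaling factors (TMM) that allow for such shifts, and with factors computed without the mitochondrial and the 10 most abundant genes the counts of called members were 65 in old and 67 in young mice, close to those given next.

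**Figure D1:**
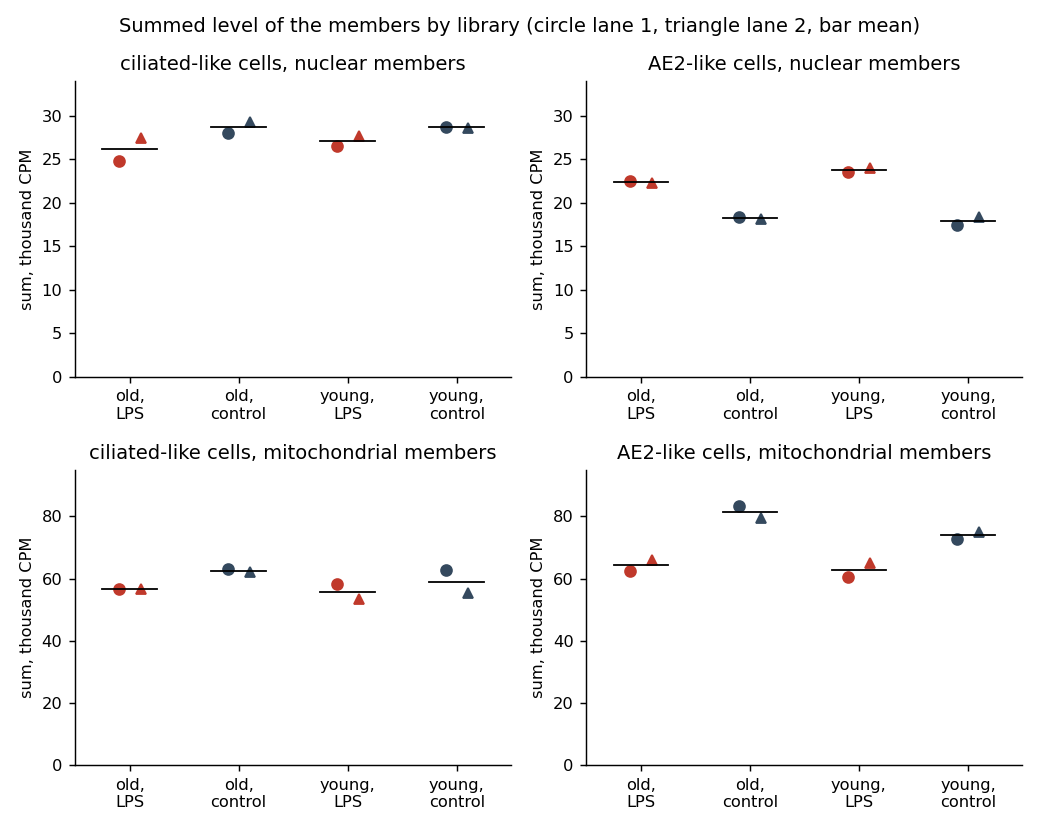
Summed level of the nuclear and of the mitochondrial members (in steps of 1000 CPM, vertical axes from 0, bars at the mean) in each library of ciliated-like and AE2-like cells, one point per library and groups on the horizontal axis. In AE2-like cells the nuclear sums of LPS libraries (22223 to 23957 CPM) lie above all control libraries and the mitochondrial sums (60411 to 66019 CPM) below them, while in ciliated-like cells the LPS means are 0.904 to 0.944 times the control means.

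Gene by gene, in TMM-scaled CPM, most nuclear members rose and most mitochondrial members fell in AE2-like cells after LPS. Of 93 members tested in the edgeR quasi-likelihood fit, 65 were called in old mice (52 nuclear higher, 3 nuclear lower, 10 mitochondrial lower) and 68 in young mice (58 nuclear higher, 2 nuclear lower, 8 mitochondrial lower), at an adjusted p (Benjamini-Hochberg over all genes) under 0.05. Of all 11332 genes tested, 48.9% were called in old and 41.0% in young mice. Among genes of at least 20 CPM, a level that most members reach, these shares were 65.3% and 57.1%, so that the members' number of calls lay near the background in old mice and above it in young mice. Higher calls made up 25.4% of all genes in old and 22.1% in young mice, and lower calls 23.6% and 18.9%. Among genes of at least 20 CPM, higher calls made up 38.3% in old and 35.9% in young mice, and lower calls 27.0% and 21.2%. The median log2 fold change was 0.41 over the 80 nuclear members tested in old mice and 0.42 in young mice, and -0.42 and -0.29 over the mitochondrial members, beside -0.01 over all genes at both ages. All 52 nuclear members called higher in old mice were also called higher in young mice, where they made up 89.7% of the 58. Over all genes, 71.5% of those called higher in old mice were shared, and these made up 82.1% of the higher calls in young mice. No member was called in opposite directions, which was rare over all genes too (7 higher in young and lower in old mice, 8 the reverse). The members not tested were Cox7b2 and the second Atp5o ID with 0 UMIs in AE2-like cells, Cox8b with 1 and Cox8c with 2.

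**Figure D2:**
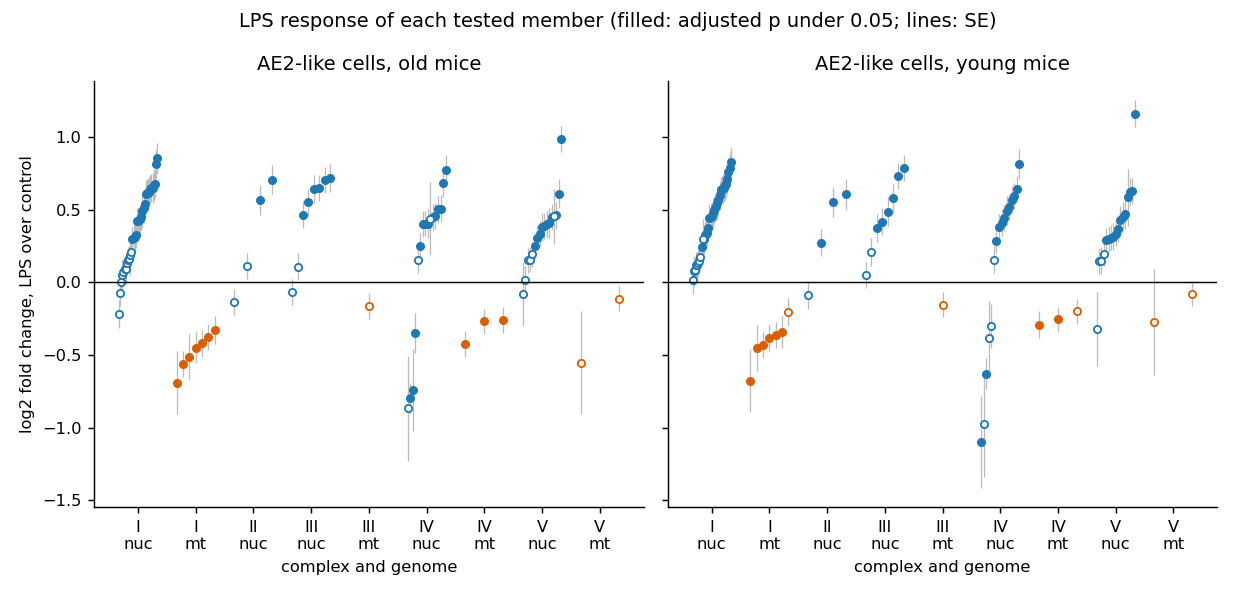
Log2 fold change of LPS against control (lines show the SE) in AE2-like cells for each member tested, grouped by complex and genome (nuc for nuclear, mt for mitochondrial), with old and young mice side by side and called members filled. Nuclear members of each complex lie mostly above 0, and the mitochondrial members lie below 0 in both ages.

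Complex I, the NADH dehydrogenase, had 23 of its 35 nuclear members higher in old mice and 26 in young mice, and none lower. The rises were in 4 of 7 core subunits at both ages and in 19 of 28 accessory subunits in old and 22 in young mice. Ndufs4, an accessory subunit near the NADH-oxidising arm, had 107 and 94.2 CPM in old LPS libraries against 57.1 and 54.2 CPM in old control libraries (log2 fold change 0.86 ± 0.10 SE, edgeR adjusted p = 4.61e-06). In young mice Ndufs4 had 110 and 106 CPM with LPS against 57.1 and 63.9 CPM in control (0.83 ± 0.10, adjusted p = 1.01e-05). The groups did not overlap at either age, and Ndufs4 was the complex I member with the largest rise in both. Ndufv2, a core subunit of the NADH-oxidising arm, rose by 0.62 ± 0.10 in old and 0.76 ± 0.10 in young mice, and Ndufs3, another core subunit, by 0.62 ± 0.10 and 0.65 ± 0.10. The accessory subunits Ndufa5 (0.81 ± 0.10 in old and 0.71 ± 0.10 in young mice), Ndufa11 (0.67 ± 0.11 and 0.79 ± 0.11) and Ndufa7 (0.45 ± 0.09 and 0.64 ± 0.09) rose as well. Members not called at either age included Ndufb11 (-0.07 in old and 0.12 in young mice), Ndufa6 (-0.22 and 0.01), Ndufb3 (0.00 and 0.17) and the core subunits Ndufs1 (0.18 and 0.30) and Ndufs7 (0.14 and 0.12). Ndufc2, Ndufb10 and Ndufv3 were called in young mice only, a difference between ages that the interaction test below did not call. With the lane as a block, Ndufb10 (adjusted p = 0.0498) and Ndufa6 (adjusted p = 0.046, at -0.22) passed the threshold in old mice.

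Complex II, succinate dehydrogenase, also a tricarboxylic acid cycle enzyme, changed in part of its 4 subunits. Sdhb, the iron-sulphur subunit, had 115 and 98.7 CPM in old LPS libraries against 66.2 and 64.9 CPM in old control libraries (0.71 ± 0.10, adjusted p = 2.59e-05), and 110 and 115 CPM against 78.2 and 75.2 CPM in young mice (0.55 ± 0.10, adjusted p = 0.000405). Sdhd, a membrane anchor, had 87.4 and 76.2 CPM in old LPS libraries against 58.4 and 52.2 CPM in old control libraries (0.57 ± 0.10), and 76.6 and 82.0 CPM against 52.1 and 52.1 CPM in young mice (0.61 ± 0.11). Sdhc, the other anchor, gave 0.11 ± 0.09 in old mice (adjusted p = 0.299) and rose by 0.27 ± 0.09 in young mice (adjusted p = 0.0245). Sdha, the flavoprotein that oxidises succinate, gave -0.14 in old and -0.09 in young mice and was not called at either age.

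In complex III, the cytochrome bc1 complex, 6 of 8 nuclear members rose at both ages. Uqcrq, a small membrane subunit, had 396 and 369 CPM in old LPS libraries against 238 and 231 CPM in old control libraries (0.70 ± 0.09, adjusted p = 1.17e-05), and 398 and 400 CPM against 220 and 242 CPM in young mice (0.79 ± 0.09, adjusted p = 4.75e-06). Uqcr10, another small subunit, rose by 0.65 ± 0.09 in old and 0.73 ± 0.09 in young mice, and the core protein Uqcrc1 by 0.72 ± 0.10 and 0.58 ± 0.10. Uqcrc2, Uqcrfs1 (the Rieske iron-sulphur protein) and Uqcrb were the other 3. Uqcrh, the hinge protein, gave -0.07 and 0.05, and Uqcr11 gave 0.11 and 0.21, neither called (Uqcr11 passed in young mice with the lane block, adjusted p = 0.043). The mitochondrial member of this complex, cytochrome b (mt-Cytb), was not called either, with -0.16 in old and -0.15 in young mice.

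In complex IV, cytochrome c oxidase, most widely expressed subunits rose, and the members that fell were isoforms or a related factor. Of 16 nuclear members tested, 10 rose at both ages (Cox5a, Cox5b, Cox6a1, Cox6b1, Cox6c, Cox7a2, Cox7b, Cox7c, Cox8a and Ndufa4), 3 fell in old and 2 in young mice. Cox5b, a subunit on the matrix side, had 237 and 226 CPM in old LPS libraries against 128 and 143 CPM in old control libraries (0.77 ± 0.10, adjusted p = 1.66e-05), and 235 and 251 CPM against 125 and 150 CPM in young mice (0.81 ± 0.10, adjusted p = 1.35e-05). Cox6c rose by 0.45 ± 0.09 in old and 0.64 ± 0.09 in young mice, and Ndufa4 by 0.50 ± 0.09 and 0.44 ± 0.09. Cox4i1, the main form of subunit 4, gave 0.15 ± 0.09 and 0.16 ± 0.09 and was not called (adjusted p = 0.175 and 0.181).

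Cox7a2l, also called Scaf1, is known as a factor that joins complexes III and IV into supercomplexes, and whether it does so in these mice was not examined. Its transcript moved the other way from its paralogue Cox7a2. Cox7a2l had 190 and 231 CPM in old LPS libraries against 389 and 343 CPM in old control libraries (-0.80 ± 0.10, adjusted p = 1.33e-05). In young mice it had 199 and 201 CPM with LPS against 315 and 303 CPM in control (-0.63 ± 0.11, adjusted p = 0.000195). LPS and control libraries did not overlap. Cox7a2, the form of this subunit found in most tissues, had 528 and 531 CPM in old LPS libraries against 372 and 399 CPM in old control libraries, and rose by 0.46 ± 0.09 in old and 0.57 ± 0.09 in young mice. Cox7a1, the form of heart and skeletal muscle, was low at 2.53 to 3.27 CPM in LPS libraries against 3.66 to 6.64 CPM in control libraries, and fell by 0.74 in old (adjusted p = 0.0388) and by 1.10 in young mice (adjusted p = 0.0106). Cox6b2, known as the testis form of Cox6b1, fell by 0.35 in old mice (adjusted p = 0.0430) and gave -0.30 in young mice (adjusted p = 0.129), while Cox6b1 rose by 0.40 ± 0.09 in old and 0.29 ± 0.09 in young mice.

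Cox6a2, the heart and skeletal muscle form of Cox6a1, was readily detected in AE2-like cells. It had 67.6 and 138 CPM in old LPS libraries against 184 and 193 CPM in old control libraries, and 138 and 120 CPM in young LPS libraries against 225 and 281 CPM in young control libraries. Each LPS library lay below each control library, but old LPS 1 and old LPS 2 differed more from each other than the old control libraries did, and the change was not called (-0.87 ± 0.36, adjusted p = 0.113 in old, and -0.98 ± 0.36, adjusted p = 0.0978 in young mice). Without old LPS 1 it was called at both ages, at -0.44 in old (adjusted p = 0.0042) and -0.98 in young mice, and without old LPS 2 it was called at -1.47 in old mice. Ciliated-like cells held at most 5 Cox6a2 UMIs per library, against 744 to 2021 in AE2-like cells. Cox6a1, its widely expressed paralogue, rose by 0.40 ± 0.10 in old and 0.49 ± 0.10 in young mice. Cox6a2 overlaps Itgad on the opposite strand by 953 bases, and whether counting used the strand is not given in the sources used here.

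**Figure D3:**
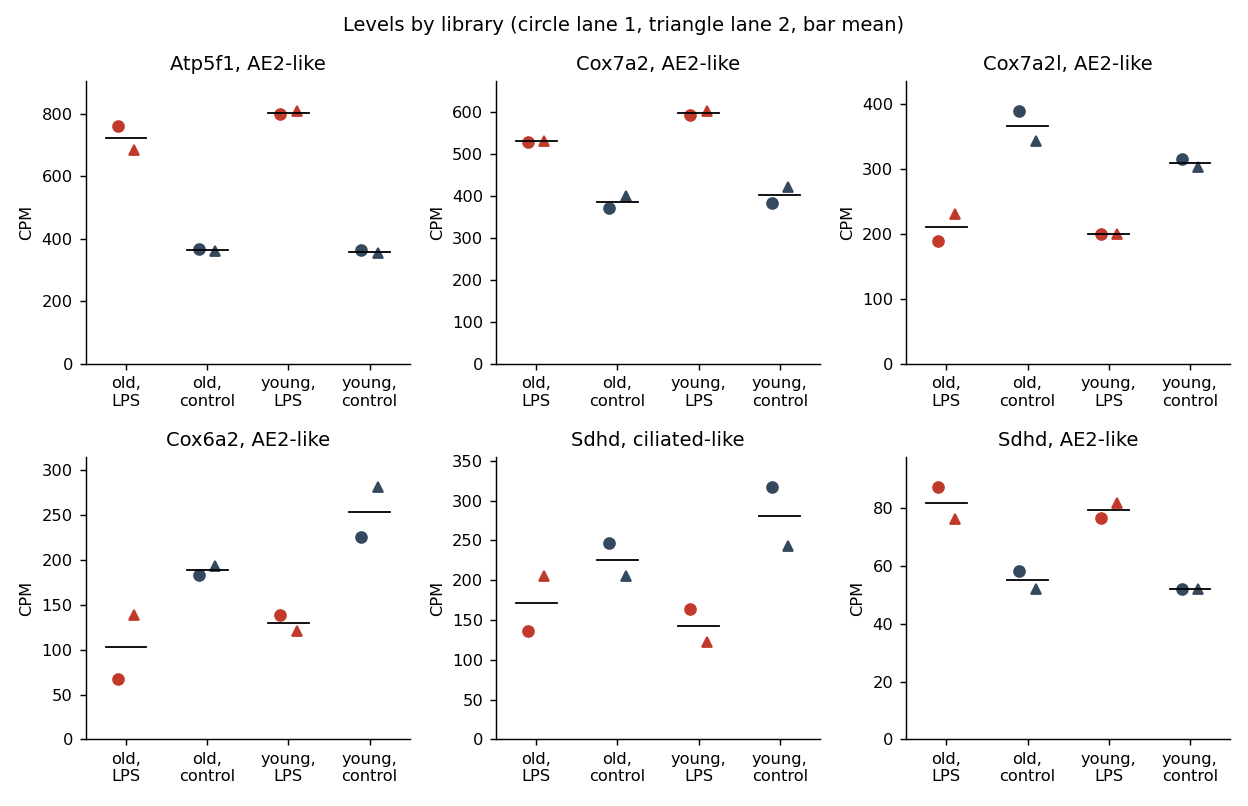
Level (CPM after TMM scaling, axes from 0, one point per library, bars at the mean) of Atp5f1, Cox7a2, Cox7a2l and Cox6a2 in AE2-like cells and of Sdhd in ciliated-like and AE2-like cells, with groups on the horizontal axes. Atp5f1 and Cox7a2 are higher and Cox7a2l lower in every LPS library, the 2 old LPS libraries lie apart for Cox6a2 at 67.6 and 138 CPM, and Sdhd is higher after LPS in AE2-like cells but not in ciliated-like cells.

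Complex V, the ATP synthase, had 11 of 17 nuclear members tested higher in old and 13 in young mice, and none lower. Atp5f1, subunit b of the peripheral stalk, had the largest change of any nuclear member called higher, with 760 and 686 CPM in old LPS libraries against 366 and 362 CPM in old control libraries (0.99 ± 0.09, adjusted p = 2.28e-07). In young mice Atp5f1 had 798 and 808 CPM with LPS against 364 and 354 CPM in control (1.16 ± 0.09, adjusted p = 4.34e-08). LPS and control libraries did not overlap. However, Atp5f1 overlaps Wdr77 on the opposite strand by 731 bases, and whether counting used the strand is not given in the sources used here. The catalytic subunit Atp5b rose by 0.61 ± 0.10 in old and 0.45 ± 0.10 in young mice, with 451 and 381 CPM in old LPS libraries against 261 and 284 CPM in old control libraries. All 3 genes of the membrane ring subunit c, whose mature proteins are the same, rose: Atp5g1 by 0.45 ± 0.09 and 0.63 ± 0.09, Atp5g3 by 0.46 ± 0.09 and 0.62 ± 0.09, and Atp5g2 at both ages as well. Atp5a1, the non-catalytic partner of Atp5b in the head, gave 0.16 in old and 0.15 in young mice, and Atp5d of the central stalk 0.02 and 0.15, neither called. Atp5k and Atp5l, small membrane subunits, rose in young mice and in old mice passed with the lane block (adjusted p = 0.00037 and 0.047). Atp5o shares its strand with Donson, Cryzl1 and a second Atp5o ID in the annotation, so its rise is uncertain. Counts of Ndufa13, Ndufb2, Ndufb8, Ndufb9 and Cox4i1 are uncertain in the same way, since each overlaps another annotated gene on its own strand. Further members overlap a gene on the opposite strand, as Atp5f1 does, among them Cox6c with Vps13b (5344 bases).

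The mitochondrial genome is transcribed from both strands as long precursors that are cut into shorter transcripts, so its genes share their synthesis. All 13 members had log2 fold changes below 0 at both ages. The 7 complex I members were called lower in old mice and 6 of them in young mice. Per library, mt-Nd5 had 950 and 1024 CPM in old LPS libraries against 1470 and 1442 CPM in old control libraries (-0.56 ± 0.09, adjusted p = 8.41e-05), and 891 and 973 CPM against 1234 and 1275 CPM in young mice (-0.43 ± 0.09, adjusted p = 0.00117). The LPS and control libraries did not overlap. For mt-Nd3 the values were 804 and 1071 CPM in old LPS libraries against 1400 and 1625 CPM in old control libraries (-0.69 ± 0.22, adjusted p = 0.0390), and 803 and 1104 CPM against 1330 and 1716 CPM in young mice (-0.68 ± 0.22, adjusted p = 0.0491). Lane 2 was above lane 1 in each of these 4 groups for mt-Nd3, which widens its error. The changes of mt-Nd2, mt-Nd4 and mt-Nd4l were -0.42, -0.38 and -0.51 in old and -0.38, -0.37 and -0.45 in young mice. The one member transcribed from the light strand, mt-Nd6, fell by 0.45 in old and by 0.34 in young mice. The last of the 7, mt-Nd1, fell by 0.33 in old mice and gave -0.21 in young mice (adjusted p = 0.101), where it was called with lane as a block (adjusted p = 0.0362).

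Of the 3 catalytic-core subunits of complex IV, all fell in old mice and 2 in young mice. The heme-copper subunit mt-Co1 had 9856 and 11235 CPM in old LPS libraries against 14446 and 13873 CPM in old control libraries (-0.43 ± 0.09, adjusted p = 0.00116), and 9461 and 9827 CPM against 11632 and 11975 CPM in young mice (-0.29 ± 0.09, adjusted p = 0.0176). All LPS libraries lay below all control libraries. The log2 fold change of mt-Co3 was -0.26 in old and -0.25 in young mice, both called, and that of mt-Co2 was -0.27 in old mice, called, and -0.20 in young mice (adjusted p = 0.0750), called with the lane block (adjusted p = 0.030). The complex V members mt-Atp6 (-0.11 in old and -0.08 in young mice) and mt-Atp8 (-0.55 and -0.27) were not called, apart from mt-Atp8 in old mice with the lane block (adjusted p = 0.00021). As sums by complex, the mitochondrial members of complex I were at 0.726 times the control mean in old and 0.781 times in young LPS libraries, those of complex IV at 0.773 and 0.844 times, that of complex III at 0.863 and 0.904 times, and those of complex V at 0.894 and 0.952 times.

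The count of mitochondrial members called in young mice rested on single libraries: it was 1 without young LPS 1 and 2 without young control 2, against 8 with all libraries. In old mice it was 5 without either control library. With no limit on the mitochondrial share of a cell, 10 mitochondrial members were called in old and 6 in young mice, and with a limit of 10% these counts were 7 and 5. Lifting the limit added few AE2-like cells: 720 became 722 in young control 1, with 523 barcodes over it, and 1062 became 1099 in old control 2, with 370. It therefore says little about most removed barcodes. The share of barcodes removed ran from 12.1% in old LPS 2 to 34.7% in young control 1.

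**Figure D4:**
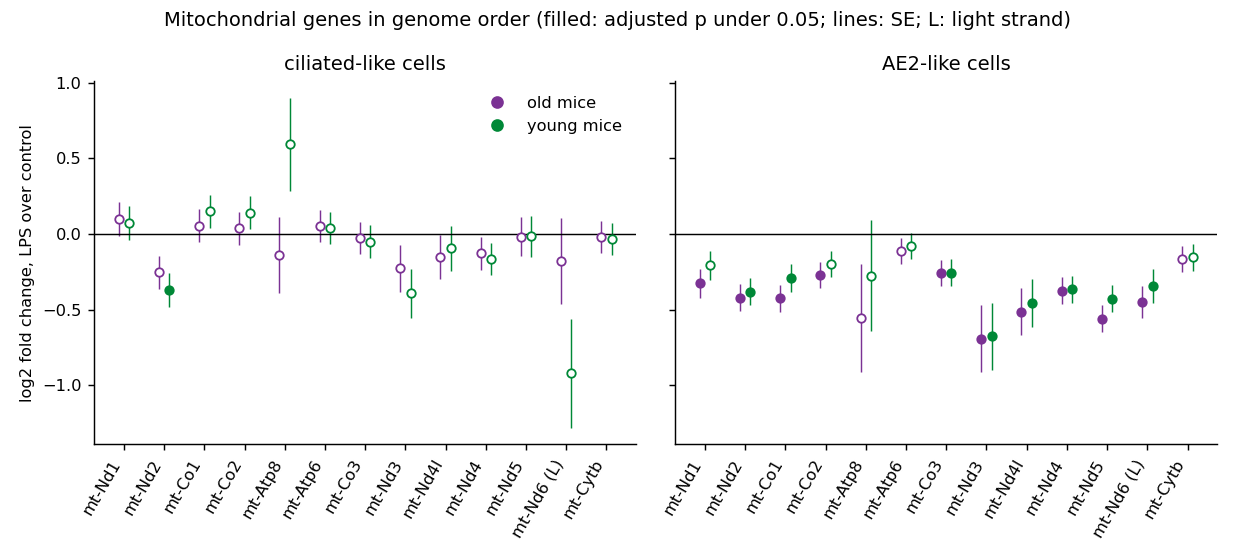
Log2 fold change of LPS against control (± SE) of the 13 mitochondrial members in their order along the mitochondrial genome, for ciliated-like and AE2-like cells in old and young mice, with filled points for adjusted p under 0.05. In AE2-like cells all points lie below 0, with mt-Nd3 lowest at -0.69 and -0.68 and mt-Atp6 closest to 0, while in ciliated-like cells mt-Nd2 in young mice is the one filled point.

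The letters of the mitochondrial genome bear on these values because neighbouring genes share bases there. The stretch shared by mt-Atp8 and mt-Atp6 (43 bases, MT:7927-7969, GRCm38, from the GENCODE M21 transcripts, forward strand) is shown since reads that lie in it fit both genes, with the start codon of mt-Atp6 in capitals.
mt-Atp8 and mt-Atp6: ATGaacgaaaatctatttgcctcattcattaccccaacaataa
In AE2-like cells mt-Atp8 had 45.8 to 92.7 CPM and mt-Atp6 had 11386 to 13408 CPM. How far these counts stand for separate transcripts of each gene was not tested, nor was it for mt-Nd4l and mt-Nd4. Whether reads that lie wholly in this stretch were counted for either gene or left out is not given in the sources used here. The genes mt-Nd4l and mt-Nd4 share 7 bases, and mt-Atp6 and mt-Co3 share 1. On opposite strands, mt-Nd5 and mt-Nd6 share 14 bases, where reads of both genes cannot be told apart if the strand was not used.

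Promoters of nuclear members were read because these genes moved together. NRF1 and GABPA (also called NRF2) are transcription factors known to bind promoters of oxidative phosphorylation genes. Of the 84 nuclear rows, 67 matched a promoter in RefSeq (GRCm38.p6), and the 250 bases before the start were searched on both strands. The NRF1 core CGCATGC was in 9 of 67 members (13.4%) against 926 of 27025 genes (3.43%). The GABPA core CCGGAAG was in 12 of 67 members (17.9%) against 2115 genes (7.83%). A match describes these letters and does not show that a factor bound. Matches were not compared between members that rose and the others. The 27025 genes were not limited to those detected in these cells. The windows below are written 5′ to 3′ on the gene's strand. Capitals mark the core as it reads there or as its reverse complement. They are a selection, for some members that rose after LPS and for 2 that did not, Ndufa6 and Uqcrh. Uqcr11, not called at either age in the main fit, also held the GABPA core.
Ndufa11, NRF1 core, chr17:56717692-56717721, plus strand: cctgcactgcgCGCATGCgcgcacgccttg
Atp5g2, NRF1 core, chr15:102671070-102671099, minus strand: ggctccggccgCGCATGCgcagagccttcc
Sdhb, NRF1 core, chr4:140961206-140961235, plus strand: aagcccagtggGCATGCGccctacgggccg
Cox6a1, NRF1 core, chr5:115349101-115349130, minus strand: caggaacggggCGCATGCgcgctctcgctc
Cox6a1, GABPA core, chr5:115348959-115348988, minus strand: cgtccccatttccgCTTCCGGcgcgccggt
Ndufs3, GABPA core, chr2:90904730-90904759, minus strand: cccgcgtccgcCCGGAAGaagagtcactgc
Sdhd, GABPA core, chr9:50603877-50603906, minus strand: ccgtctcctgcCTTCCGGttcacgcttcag
Ndufa6, NRF1 core, chr15:82354356-82354385, minus strand: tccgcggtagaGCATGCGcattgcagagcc
Uqcrh, GABPA core, chr4:116075071-116075100, minus strand: actacgaggagtatgccgcaCTTCCGGcca
In Ndufs3 and Sdhd the core ends 20 and 39 bases before the annotated start, and in Ndufa11 and Sdhb it ends 52 and 47 bases before it. In Uqcrh and Ndufa6 it ends 3 and 76 bases before the start.

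No member passed the threshold for age. In AE2-like cells, old against young gave 0 called members in control mice (0.627% of all genes were called) and 0 after LPS (4.17%), by edgeR and by DESeq2, with 8 and 5 members at an unadjusted p under 0.05. Of these, mt-Co1 had 14446 and 13873 CPM in old control libraries against 11632 and 11975 CPM in young control libraries (log2 fold change 0.26, edgeR adjusted p = 0.285). Ndufc2, a membrane-arm subunit of complex I, had 342 and 337 CPM in old LPS libraries against 462 and 389 CPM in young LPS libraries (-0.32, adjusted p = 0.0876). The interaction of LPS and age was called for 0 members (0.671% of all genes), with 1, Cox4i2, at an unadjusted p under 0.05 and 0 by DESeq2. Without old LPS 2, the library that stood apart, the comparison of old with young after LPS called 5 members (Cox6a2, Ndufc2, Ndufv3, Ndufa7 and mt-Nd1, all lower in old mice), and without old LPS 1 it called 1.

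Few members were called in ciliated-like cells of the same libraries, and as plain shares the sums of each genome were 0.904 to 0.944 times the control mean. After TMM scaling, the median log2 fold change over nuclear members was 0.02 in old and -0.01 in young mice. Over mitochondrial members it was -0.03 at both ages. Per cell, mean nuclear UMIs after LPS were 1.21 (old) and 1.09 times (young) the control mean, and mitochondrial UMIs 1.20 and 1.08 times. Total UMIs per ciliated-like cell were also higher, at 5669 to 7128 against 4959 to 5338 in control libraries. Nuclear members summed to 24859 and 27434 CPM in old LPS libraries against 28016 and 29346 CPM in old control libraries, and to 26474 and 27719 CPM in young LPS libraries against 28771 and 28648 CPM in young control libraries. The ratio to the control mean was 0.912 in old and 0.944 in young mice. Mitochondrial sums were 56654 and 56535 CPM (old LPS) against 63112 and 62034 CPM (old control), and 58128 and 53348 CPM (young LPS) against 62694 and 55386 CPM (young control), a ratio of 0.904 and 0.944. The mitochondrial to nuclear ratio was 2.28 and 2.06 in old LPS libraries against 2.25 and 2.11 in old control libraries, and 2.20 and 1.92 against 2.18 and 1.93 in young mice.

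By complex the ciliated-like sums were uneven. Mitochondrial members of complex I summed to 15330 and 15596 CPM in old LPS libraries against 18182 and 18828 CPM in old control libraries, and to 16168 and 14847 CPM in young LPS libraries against 18977 and 18106 CPM in young control libraries. All LPS libraries lay below all control libraries, at 0.836 times the control mean at both ages. Complex II summed to 471 and 542 CPM in old LPS libraries against 631 and 597 CPM in old control libraries. In young mice it summed to 539 and 454 CPM with LPS against 626 and 636 CPM in control. The groups again did not overlap, at 0.825 (old) and 0.787 times (young) the control mean. Most of this drop was that of Sdhd. As plain shares, Sdhd had 129 and 192 CPM in old LPS libraries against 255 and 208 CPM in old control libraries. In young mice it had 155 and 115 CPM with LPS against 313 and 238 CPM in control. The log2 fold changes of Sdha, Sdhb and Sdhc were -0.12, 0.03 and 0.04 in old mice. In young mice they were 0.32, 0.12 and -0.10. For complex I the mitochondrial to nuclear ratio was 1.80 and 1.71 in old LPS libraries against 1.96 and 1.99 in old control libraries, and 1.805 and 1.61 against 2.07 and 1.94 in young mice.

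Of 89 members tested in ciliated-like cells, 2 were called after LPS in old mice (9.22% of 7842 genes tested) and 4 in young mice (8.4%), with 7 and 12 at an unadjusted p under 0.05. Ndufs3 rose at both ages, with 245 and 296 CPM in old LPS libraries against 200 and 164 CPM in old control libraries (0.51 ± 0.16, adjusted p = 0.0440), and 269 and 219 CPM against 159 and 171 CPM in young mice (0.58 ± 0.18, adjusted p = 0.0440). Cox7a2l fell in old mice, with 140 and 147 CPM in LPS libraries against 212 and 183 CPM in control libraries (-0.50 ± 0.16, adjusted p = 0.0485). In both genes the groups did not overlap, and the direction was that seen in AE2-like cells. Sdhd fell in young mice, with 164 and 122 CPM in LPS libraries against 317 and 243 CPM in control libraries (-0.98 ± 0.21, adjusted p = 0.00260), the opposite of its rise in AE2-like cells, and gave -0.48 ± 0.19 in old mice (adjusted p = 0.123). Atp5g1 rose (0.56 ± 0.16, adjusted p = 0.0243) and mt-Nd2 fell (-0.37 ± 0.11, adjusted p = 0.0330) in young mice. Leaving out single libraries gave 0 to 3 called members in old and 0 to 5 in young mice, and DESeq2 called 0 and 1. Old against young gave 0 called members in control mice (0.357% of all genes; 3 at an unadjusted p under 0.05) and 0 after LPS (1.19%; 1 unadjusted), and 0 by DESeq2 in both. The interaction of LPS and age also gave 0 (0.281% of all genes; 0 unadjusted and 0 by DESeq2).

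The difference between both cell types was tested directly, in a fit of the 16 sums with the library as a block and over both ages. The response to LPS differed between ciliated-like and AE2-like cells in 45 of 93 members (15.5% of 12166 genes tested). The response was lower in ciliated-like cells for 35 nuclear members (7.04% of all genes), and higher for 1 nuclear and 9 mitochondrial members (8.43% of all genes). The median difference of the log2 response, ciliated-like minus AE2-like, was -0.25 over nuclear and 0.42 over mitochondrial members, beside 0.08 over all genes. By complex, the called members were 16 nuclear and 5 mitochondrial of complex I, 2 of complex II, 4 nuclear of complex III, 9 nuclear and 3 mitochondrial of complex IV, and 5 nuclear and 1 mitochondrial of complex V.

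Ordered by p, the differences began with Sdhd (-1.21 ± 0.15, adjusted p = 3.06e-14), followed by Uqcr10 (-0.95 ± 0.13, adjusted p = 3.65e-11), Ndufs4 (-0.92 ± 0.15), Atp5f1 (-0.76 ± 0.12) and Ndufa4 (-0.66 ± 0.12). Uqcr10, for example, had 259 and 299 CPM in old LPS libraries against 331 and 336 CPM in old control libraries of ciliated-like cells, where its own change was not called (adjusted p = 0.301), while it rose in AE2-like cells. Atp5f1 had 434 and 477 CPM in old LPS libraries against 410 and 366 CPM in old control libraries of ciliated-like cells (0.21 ± 0.13, adjusted p = 0.388). Its values were higher after LPS in both cell types, and less so in ciliated-like cells. Among mitochondrial members mt-Co1 (0.56 ± 0.10) and mt-Nd5 (0.57 ± 0.12) had the smallest p, and Cox7a2l was the nuclear member with a higher response in ciliated-like cells (0.43, adjusted p = 0.0226). Ndufs3 (-0.01), Atp5g1 (-0.03) and Cox4i1 (0.05) were not called different. AE2 and club and secretory marker transcripts were present in the ciliated-like sums at the levels given above, and their part in this difference was not tested. DESeq2 called 19 of the 45 and thinning every cell to 2000 UMIs called 19, none with another sign, and leaving out old control 1 gave 28 and young LPS 1 gave 29 called members.

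**Figure D5:**
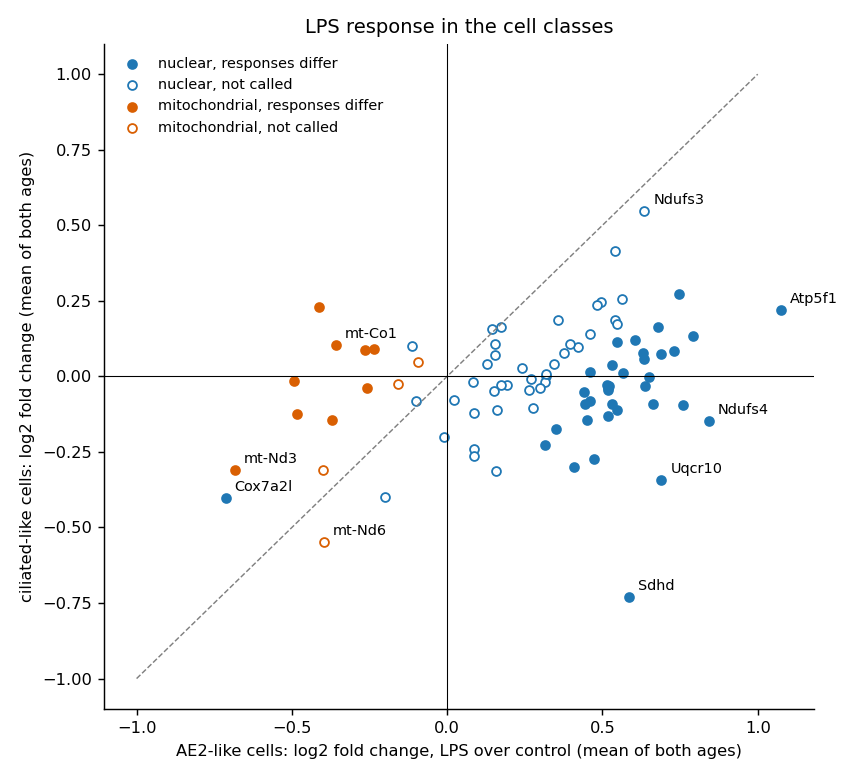
Response to LPS (log2 fold change, mean of both ages) of each member in ciliated-like cells (vertical axis) against that in AE2-like cells (horizontal axis), with members whose responses differ filled and a dashed line where responses are equal. Most nuclear members lie to the right of 0 and below the line, and most mitochondrial members lie to the left of 0 and above it.

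Levels in ciliated-like and AE2-like cells of the same library were compared as a description, since the classes come from clustering these cells. In control libraries, 67 of 76 nuclear members (88.2%) had a higher share of UMIs in ciliated-like cells in each of the 4 libraries, against 66.0% of all 6081 genes compared, and the median log2 ratio was 0.69 (0.81 over all genes). In LPS libraries 41 of 76 (53.9%) were higher in ciliated-like cells in each library, against 62.4% of all genes, with a median of 0.18 (0.63 over all genes). The gap in nuclear members between both cell types was therefore narrower after LPS. Of the 13 mitochondrial members, 8 were lower in ciliated-like cells in each control library and 7 in each LPS library, with medians of -0.45 and -0.20.

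Genes that work with these complexes were read from lists of the pathway, beside the 25.4% of all genes called higher and 23.6% called lower in old mice and the 22.1% and 18.9% in young mice. Among genes of at least 20 CPM, 38.3% were called higher and 27.0% lower in old mice, and 35.9% and 21.2% in young mice. A count near either set of shares is not a result about the list. Examples are assembly factors in young mice and the higher calls of tricarboxylic acid cycle genes at both ages. In AE2-like cells, 58 of 77 mitochondrial ribosomal protein genes, which translate the mitochondrial transcripts, rose in old and 46 in young mice after LPS (1 and 2 fell), with medians of 0.51 and 0.39. Cytosolic ribosomal protein genes had 16 of 80 higher and 7 lower in old mice and 12 higher and 5 lower in young mice, with medians of 0.10 and 0.04. Of 44 assembly factors for the complexes, 20 rose in old and 12 in young mice and none fell, among them Cox18, which inserts mt-Co2 into the membrane (1.05 in old and 1.23 in young mice). The electron carriers and their synthesis had 8 of 16 higher and 2 lower in old mice and 7 higher and 1 lower in young mice, and cytochrome c (Cycs) rose by 0.72 and 0.63. Carriers and channels that exchange ADP, ATP and phosphate rose in 7 of 9 genes at both ages, among them Vdac2 (0.61 and 0.72). Tricarboxylic acid cycle and pyruvate dehydrogenase genes had 8 of 23 higher and 4 lower in old mice and 9 higher and 2 lower in young mice. Mdh2, malate dehydrogenase, rose by 0.81 and 0.62, and Pdk1 and Pdk2, kinases that inhibit pyruvate dehydrogenase, changed by -1.20 and -1.14 in old and -0.87 and -1.02 in young mice. The other kinases of this family went the other way where called: Pdk3 rose by 0.68 and Pdk4 by 1.26 in young mice. In old mice Pdk4 had 1.73 and 1.74 CPM in LPS libraries against 0 CPM in both control libraries. Pdk4 was near the floor at these levels, so its change carries little weight.

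Genes that copy, transcribe or process mitochondrial DNA and RNA were split: 4 of 30 rose and 5 fell in old mice, and 2 rose and 4 fell in young mice. Slirp, a partner of the RNA-stabilising protein Lrpprc, rose by 0.83 in old and 0.92 in young mice, while Hsd17b10, a subunit of mitochondrial RNase P, changed by -0.75 and -0.86, and Polg, the DNA polymerase of mitochondria, by -0.36 and -0.45. Among 13 regulators of mitochondrial genes, 3 rose and 4 fell in old mice and 1 rose and 4 fell in young mice. Gabpa and Gabpb1, the subunits of GABP, changed by -0.66 and -0.62 in old and by -0.56 and -0.75 in young mice, and Hif1a, the hypoxia-inducible factor, rose by 1.54 and 1.34. Gabpa overlaps the member Atp5j on the opposite strand by 701 bases. In ciliated-like cells, none of these lists had more than 7 genes called in either direction at either age, with 2 of 75 mitochondrial ribosomal protein genes higher in old mice and 1 lower in young mice.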

How the data were processed

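The authors deposited 1 table of UMI counts for each group and lane, with genes in rows, barcodes in columns and no normalization. The submitters' processing notes name Seurat (3.1 and 3.1.5), bcl2fastq, R 3.6.3, Cell Ranger 3.1.0, STAR and the build mm10, with no role or order. The tables held 85889264 UMIs over 14048 barcodes (6228266 to 15435789 per library), and 4 barcode sequences occurred in both lanes. Barcodes with under 500 genes or over 20% mitochondrial UMIs were removed (2803), and scrublet (expected share 0.02) marked 16 doublets, too few to count as doublet removal, and an alternative dropped the top 3% of cells by doublet score.

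The 11229 cells were clustered with scanpy 1.11.5 and leidenalg 0.10.2 (2000 variable genes without the members, 30 components, 20 neighbours, resolution 1) into 20 clusters, of which 8 were named AE2-like and 2 ciliated-like by marker score, at least 3 detected markers and no more markers of another class than of its own among the 10 top genes. With no limit on the mitochondrial share, clusters were named by the score alone. No correction for free RNA was made.

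UMIs were summed per library and class, filtered with filterByExpr, scaled with TMM and fitted with edgeR 4.0.16 (limma 3.58.1, R 4.3.3) by robust quasi-likelihood, all 8 libraries in 1 fit with 4 residual degrees of freedom. Benjamini-Hochberg adjustment ran over all genes, with a threshold of 0.05. SEs are approximate and were obtained from the log2 fold change and its F statistic. Member CPM are TMM-scaled, while sums and ratios between cell types are plain shares, described with no test. DESeq2 1.42.0, other scalings, filters, thinning to 2000 UMIs, a lane block and leaving out each library were alternatives, and naming clusters by the score alone was added after the data were seen. The labels say that a lane held all 4 groups, which pairs libraries by lane. Deviations of same-lane libraries from their group means correlated at -0.002 to 0.149 in AE2-like and 0.019 to 0.058 in ciliated-like sums.

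The rule for members uses symbols alone, but this gene family, the pathway lists and the named genes were picked with earlier results of these data known. The rule for named genes takes all mitochondrial members, the Sdh genes, subunits with paralogues and, per complex, the 3 most abundant nuclear members, the largest called changes and members called in few comparisons. A member named outside it (Ndufa5, Ndufa6, Ndufb3, Ndufb10, Ndufs1, Ndufs7, Ndufv2, Ndufv3, Ndufc2, Atp5a1, Atp5d, Atp5k or Atp5l, for example) was chosen after its values were seen. The NRF1 core replaced a longer form of that motif after matches of the longer form had been seen, which were fewer among members and among all genes.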

Additional observations from a re-analysis of the deposited data

Results flagged for a closer look

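The response to LPS differed between ciliated-like and AE2-like cells in 45 members, by the test of the difference itself over both ages (edgeR adjusted p under 0.05). The members with the smallest p, as ciliated-like minus AE2-like log2 difference, were Sdhd (-1.21), Uqcr10 (-0.95), Ndufs4 (-0.92), Atp5f1 (-0.76) and Ndufa4 (-0.66). They were followed by mt-Co1 (0.56), Atp5mpl (-0.62), Cox6c (-0.57), mt-Nd5 (0.57) and Cox5a (-0.58). The sums of ciliated-like cells hold fewer cells and also AE2 and club and secretory marker transcripts. What part any of these has in the differences was not tested.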

How the results depend on the processing

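Over all alternatives, 105 called results of named members kept the call 1841 times, lost it 232 times and never changed sign. AE2-like LPS counts were 52 to 70 in old and 51 to 71 in young mice over all alternatives, with 70 and 71 under the lane as a replicate block, which changed no other call than those named above. In ciliated-like cells the block left the LPS counts at 2 and 4. In old mice the ciliated-like LPS count of 2 became 5 with library size only, 1 with no filter, 0 with DESeq2, 0 after thinning and 0 to 3 when each library was left out in turn. In young mice the count of 4 became 1 with DESeq2 and 0 to 5 without single libraries. The difference between cell types became 19 with DESeq2, 19 after thinning and 28 to 49 without single libraries. The AE2-like age counts of 0 became 0 to 1 in control mice and, after LPS, 1 with no filter and 0 to 5 without single libraries, and the ciliated-like one after LPS became 0 to 1. LPS to control ratios without single libraries were 1.22 to 1.23 (old) and 1.29 to 1.36 (young) for the nuclear AE2-like sum, 0.817 to 0.881 for the mitochondrial AE2-like sum in young mice, 0.867 to 0.957 for the nuclear ciliated-like sum in old mice and 0.889 to 1.01 for the mitochondrial ciliated-like sum in young mice. That sum reversed, to 1.01, without young control 1. Over nuclear genes alone, a total that still holds Sftpc, the nuclear AE2-like ratio in old mice was 1.20. The cause of these shifts was not tested. The ciliated-like sums are the smaller ones, and what their depth limits was not tested.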

Other observations

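Paralogues known to replace Ndufa4 in complex IV were nearly silent. AA467197, the mouse counterpart of human C15orf48, had 8 and 17 UMIs in old LPS libraries against 1 and 1 in old control libraries of AE2-like cells, and 4 and 4 UMIs in young LPS libraries against 0 and 5 in young control libraries. In ciliated-like cells it had 9 and 4 UMIs in old LPS libraries and 0 to 1 in each other library. Ndufa4l2 had 0 UMIs in every library of both classes. Neither gene was tested in these comparisons.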
